A study of Rattus norvegicus with 23 samples.

Results

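Lck, Cd3g, Cd2, Cd8a, Il2rb, Gzma, Gzmb and Prf1 are 8 genes that mark T lymphocytes and cytotoxic cells, and they were followed in rat liver as 8 of the 14217 genes that an Affymetrix rat genome array represents by a probe set of that gene alone. A gene with several such probe sets was read from the one with the highest mean over the 23 liver samples. In every test a compound was set against the vehicle used in the same in-life study. Values were on the log2 scale after robust multichip averaging (RMA) by the authors, so that a difference of 1 is a doubling of signal.

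The study set expression profiles of hepatotoxicants against one another in young male Sprague Dawley rats that received a compound or its vehicle daily by oral gavage, were fasted overnight and had RNA taken from the left lateral lobe. Alpha-naphthylisothiocyanate (ANIT, 100 mg/kg) was set against corn oil at 5 ml/kg, and methylenedianiline (MDA, 100 mg/kg) against 35% ethanol at 2 ml/kg. A further in-life study paired APAP (acetaminophen, 1000 mg/kg) with a smaller volume of corn oil (2 ml/kg) and DCLF (diclofenac, 10 mg/kg) with water (10 ml/kg). Each group held 3 rats except water, which held 2. In the larger-volume corn oil group the sample titles open with 3 animal numbers yet close with a single shared one, and it was the opening numbers that were read as animals.

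T cells recognise antigen through a receptor whose signal runs through the CD3 chains, of which Cd3g encodes the gamma chain, and through Lck, a tyrosine kinase held at the coreceptors CD4 and CD8. Cd8a encodes the alpha chain of CD8, the coreceptor of cytotoxic T cells, and Cd2 encodes an adhesion receptor of T and natural killer (NK) cells. Il2rb encodes the receptor beta chain that interleukin 2 and interleukin 15 share, on which NK cells depend. Perforin (Prf1) opens the membrane of a target cell, and the granule proteases granzyme A (Gzma) and granzyme B (Gzmb) enter through it. The liver is known for its resident NK and CD8 T cells, which patrol the sinusoids.

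Sample medians over all probe sets lay between 8.95 and 9.02, and arrays of a group correlated at 0.987 to 0.995. The highest value of an array was 14.58 and 14.97 in ANIT replicates 1 and 2 and 14.57 in replicate 2 of corn oil at 5 ml/kg, against 15.86 to 15.99 in the other 20 arrays. The members lay well below this ceiling, with means over the 23 samples of 7.83 for Gzma to 9.71 for Lck. Gzma exceeded 25.6% of the probe sets tested and Lck 65.5%. All 8 members also exceeded the 25th percentile of probe set means, 7.80, Gzma by the smallest margin.

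MDA gave the highest group mean for 7 of the 8 members, all but Cd8a, and ANIT the lowest for the granule genes Gzma, Gzmb and Prf1 and for Cd8a. The exception of Cd8a held only for the probe set used. On its other probe sets MDA did give the highest mean (8.72 and 8.55), with DCLF next (8.42 and 8.41). This order runs over groups of 3 in-life studies, so compound, vehicle and study cannot be told apart in it. Groups that stood next to each other in the order of means mostly shared part of their range. Of 7 such neighbours, the ranges overlapped in 6 for Lck and Il2rb, where the gap lay below MDA. They overlapped in 5 for Gzmb, where MDA stood clear of the rest at the top and ANIT at the bottom, and in all 7 for Cd3g, Cd2, Cd8a, Gzma and Prf1.

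**Figure D1:**
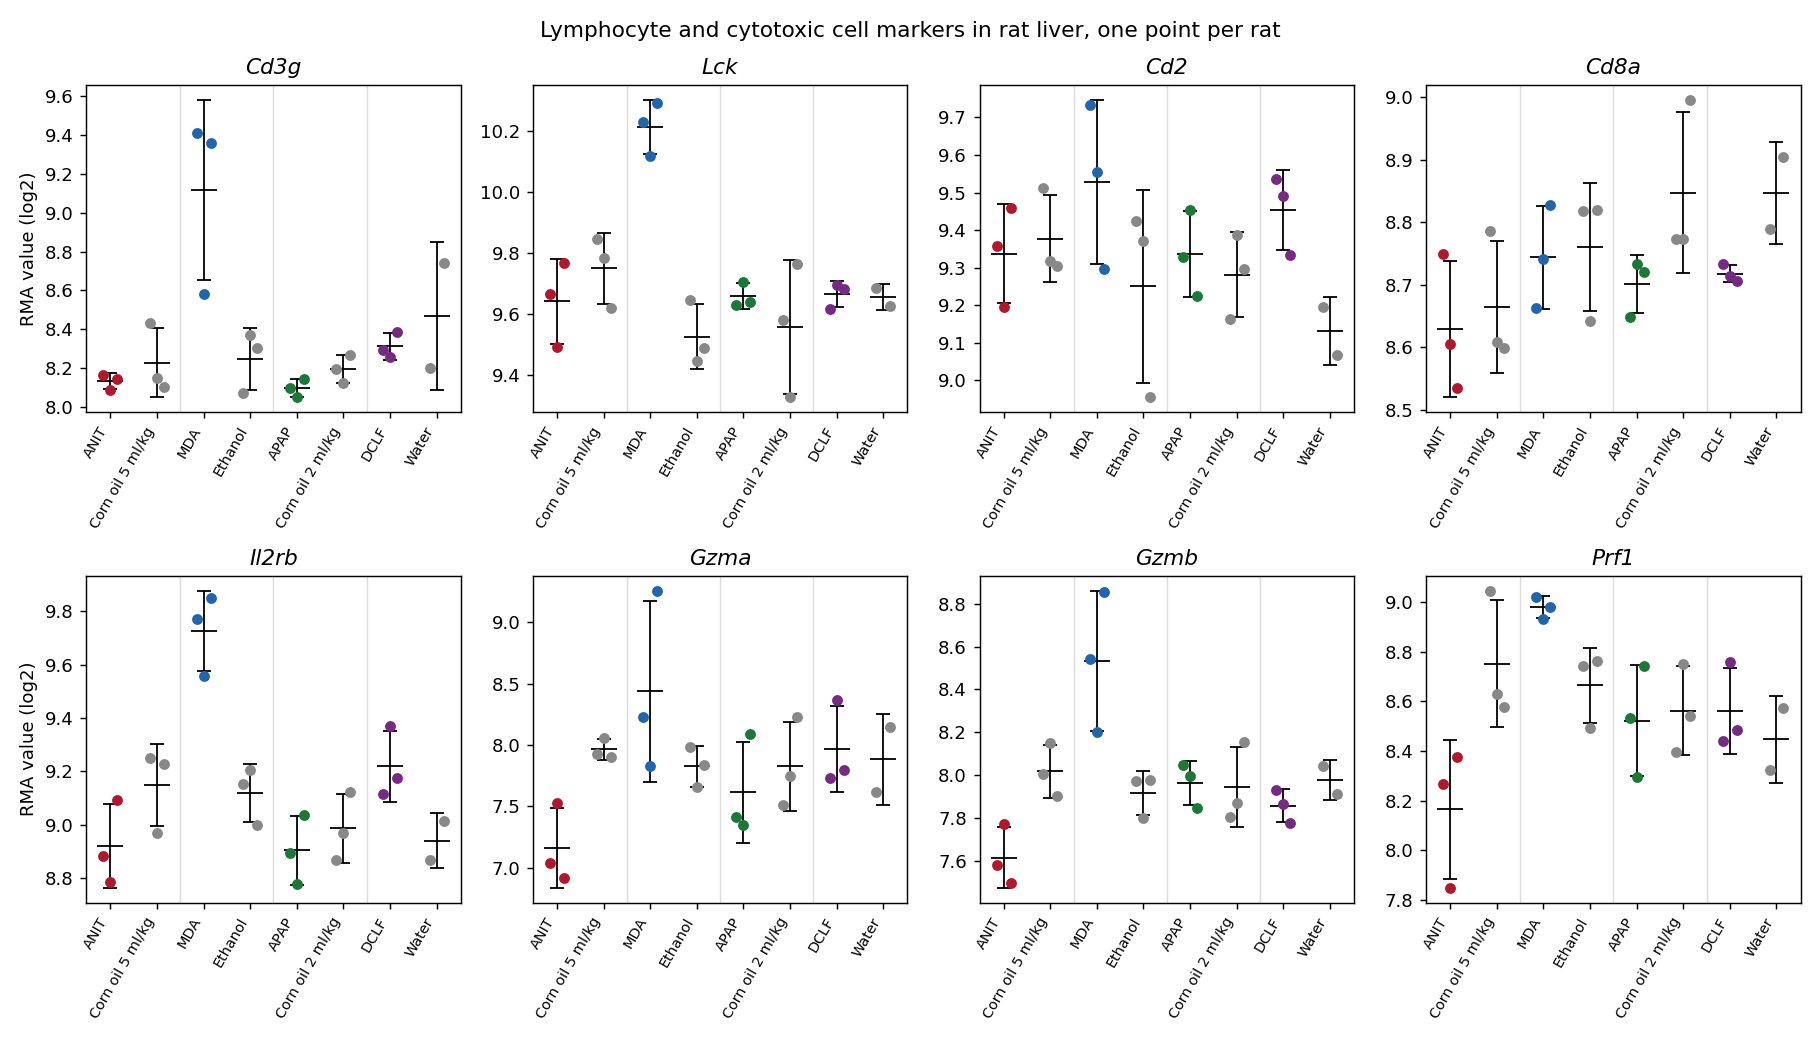
RMA values (log2) of the 8 markers in the 8 groups, each compound left of its vehicle. Points are single rats, the horizontal dash is the group mean and the error bar is 1 SD (n = 3, water n = 2). MDA samples sit above all other groups for Lck and Il2rb, and ANIT samples sit at the bottom of the Gzmb panel, with groups of 3 in-life studies side by side.

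Under MDA, Lck, Cd3g, Il2rb and Gzmb were called higher than under ethanol by limma, where a call needs a Benjamini-Hochberg adjusted p below 0.05 and a change of more than 1.5-fold. That was 4 of 8 members, against 4.90% of the 14217 genes called higher and 4.23% called lower, and 0 members were called lower. The median change of the members was 0.61, against 0.002 over all genes. In whole liver RNA, a change in the number of cells of a type and a change in RNA per cell cannot be told apart.

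Cd3g, the CD3 gamma chain, read 9.41, 8.58 and 9.36 in MDA livers, against 8.07, 8.37 and 8.30 in ethanol livers. All MDA values lay above all ethanol values, with replicate 2 well below the other two. The change was 0.87 ± 0.211 (SE, n = 3 each; 95% confidence interval 0.38 to 1.35), or 1.83-fold, with an adjusted p of 0.0307 by limma. Lck, the kinase that starts the signal, read 10.23, 10.12 and 10.29 in MDA livers, against 9.64, 9.44 and 9.49 in ethanol livers. The groups were far apart relative to the spread inside them, and the change was 0.69 ± 0.0941 (adjusted p = 0.00294 by limma). Cd2, the adhesion receptor, read 9.73, 9.56 and 9.30 in MDA livers, against 9.42, 9.37 and 8.96 in ethanol livers. Its groups overlapped and the difference of 0.28 ± 0.155 did not pass (adjusted p = 0.325 by limma). Cd8a read 8.66, 8.74 and 8.83 in MDA livers and 8.82, 8.64 and 8.82 in ethanol livers, a difference of -0.02 ± 0.0925 with a 95% interval of -0.23 to 0.20.

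Il2rb, the shared receptor chain for interleukins 2 and 15, read 9.77, 9.56 and 9.85 in MDA livers, against 9.15, 9.21 and 8.998 in ethanol livers. The groups did not overlap, and the change of 0.61 ± 0.107 (adjusted p = 0.00852 by limma) was 1.52-fold, just past the fold threshold.

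Among the granule genes, only Gzmb was called. It read 8.54, 8.20 and 8.86 in MDA livers, against 7.97, 7.80 and 7.98 in ethanol livers, a change of 0.62 ± 0.157 (adjusted p = 0.0366 by limma). Gzma read 8.23, 7.83 and 9.26 in MDA livers, against 7.99, 7.66 and 7.84 in ethanol livers. Its mean difference of 0.61 ± 0.313 was as large as that of Gzmb, but replicate 3 stood far above the other MDA rats and the groups overlapped (adjusted p = 0.277 by limma). Prf1, the pore former, read 9.02, 8.93 and 8.98 in MDA livers, against 8.74, 8.49 and 8.76 in ethanol livers. Every MDA value was above every ethanol value, yet the difference of 0.31 ± 0.0989 passed neither threshold (adjusted p = 0.0776 by limma). Counting members whose groups were apart, 5 of 8 had all MDA values on top, against 17.1% of all genes.

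The calls of Cd3g and Gzmb were lost without ethanol replicate 1 (0.78 for Cd3g and 0.65 for Gzmb), ethanol replicate 2 (0.93 and 0.56), ethanol replicate 3 (0.90 and 0.65), MDA replicate 1 (0.72 and 0.61) or MDA replicate 3 (0.75 and 0.46), and that of Il2rb without ethanol replicate 3 (0.55) or MDA replicate 3 (0.55). Lck was called without any one rat, with changes of 0.65 to 0.75, and lost its call, of the alternatives run, only where the study's own per-gene test, which shares no variance between genes, was adjusted over all probe sets.

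**Figure D2:**
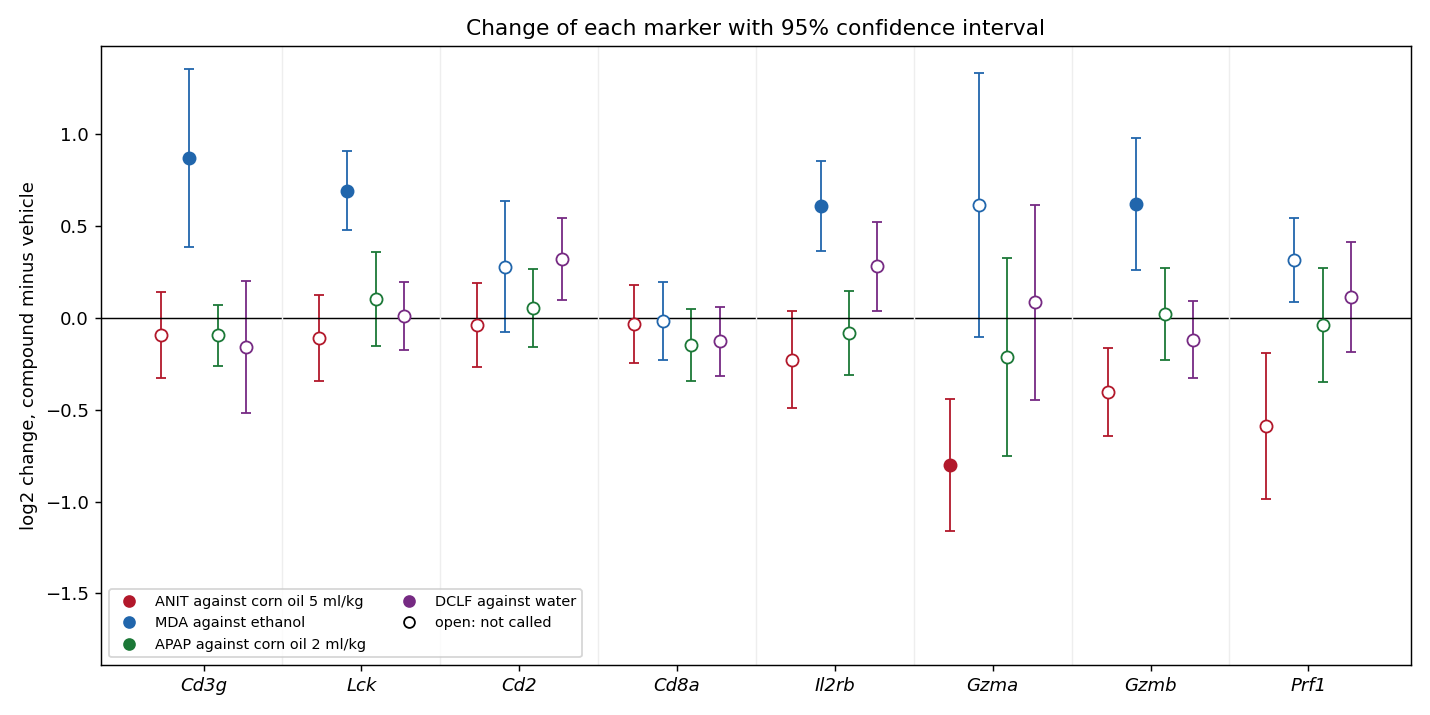
Change of each marker (log2, compound minus vehicle) under ANIT, MDA, APAP and DCLF. Bars are 95% confidence intervals of the limma fit, filled points passed both thresholds and open points did not; the filled points are Cd3g, Lck, Il2rb and Gzmb under MDA and Gzma under ANIT.

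Under ANIT, 1 of 8 members, Gzma, was called lower than under corn oil at 5 ml/kg, against 3.38% of all genes called lower and 3.84% called higher. All 8 differences were below 0, with a median of -0.17 against -0.02 over all genes. For Gzma, Gzmb and Prf1 every ANIT value lay below every corn oil value, which was 3 of 8 members against 18.8% of all genes.

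The 3 granule genes are the members whose groups stood apart under ANIT, so their promoters are shown here, taken from RefSeq on build GRCr8 and read from 250 bases before the start of the gene to 50 after it. Capitals mark the letters TGTGGT, used here for RUNX factors, and AGGAAG, used here for ETS factors, in either orientation. Other forms of the sites of these factors were not searched. Both families are known to act in lymphocytes. The windows are chr2:46485647-46485946 for Gzma and chr15:34462420-34462719 for Gzmb, both on the minus strand, and chr20:29788790-29789089 for Prf1 on the plus strand.
Gzma: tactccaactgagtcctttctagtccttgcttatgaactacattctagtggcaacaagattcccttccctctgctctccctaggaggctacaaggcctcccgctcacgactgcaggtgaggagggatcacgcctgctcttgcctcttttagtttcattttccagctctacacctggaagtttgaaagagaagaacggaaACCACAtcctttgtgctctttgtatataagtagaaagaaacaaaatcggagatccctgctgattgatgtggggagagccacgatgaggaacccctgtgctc
Gzmb: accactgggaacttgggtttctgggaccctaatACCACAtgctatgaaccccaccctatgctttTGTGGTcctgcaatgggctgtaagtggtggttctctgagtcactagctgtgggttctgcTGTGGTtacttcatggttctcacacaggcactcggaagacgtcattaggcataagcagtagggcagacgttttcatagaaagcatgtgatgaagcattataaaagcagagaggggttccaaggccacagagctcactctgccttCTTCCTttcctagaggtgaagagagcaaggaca
Prf1: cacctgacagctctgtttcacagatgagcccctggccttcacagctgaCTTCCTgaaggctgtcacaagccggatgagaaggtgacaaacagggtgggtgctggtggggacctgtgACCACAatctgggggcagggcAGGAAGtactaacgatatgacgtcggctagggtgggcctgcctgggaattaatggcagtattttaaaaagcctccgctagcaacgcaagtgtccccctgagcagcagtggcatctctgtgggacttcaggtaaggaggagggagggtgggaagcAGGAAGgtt
The RUNX letters occurred once in Gzma, 3 times in Gzmb and once in Prf1, and the ETS letters AGGAAG 0 times in Gzma, once in Gzmb and 3 times in Prf1. RefSeq promoters were matched for 7 members (8 windows, with 2 for Lck), of which 5 held the RUNX letters and 4 the ETS letters. Of all 33469 promoter windows, 17.3% and 34.5% held them. The other motifs searched on both strands were the T-box letters AGGTGT (2 members, 13.6% of all windows), which can overlap with the RUNX letters, the STAT letters TTCNNNGAA (1 member, 8.87%) and the AP-1 letters TGANTCA (1 member, 7.33%). A match describes letters and shows no binding.

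Gzma read 7.04, 7.53 and 6.92 in ANIT livers, against 7.93, 8.06 and 7.90 in corn oil livers. The corn oil rats were close together and the ANIT rats spread more widely below them. The change was -0.80 ± 0.155 (SE, n = 3 each; 95% interval -1.16 to -0.44), or 1.74-fold lower, with an adjusted p of 0.0174 by limma. Gzmb read 7.58, 7.77 and 7.49 in ANIT livers, against 8.003, 8.15 and 7.90 in corn oil livers. Its difference of -0.40 ± 0.103 passed the adjusted p (0.0488 by limma) but was only 1.32-fold. Prf1 read 8.27, 7.85 and 8.38 in ANIT livers, against 9.05, 8.63 and 8.58 in corn oil livers. The difference of -0.59 ± 0.171 was at the fold threshold and missed the adjusted p (0.0750 by limma).

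The receptor and T cell members moved little under ANIT. Il2rb read 8.88, 8.79 and 9.09 in ANIT livers, against 9.25, 8.97 and 9.23 in corn oil livers, with a difference of -0.23 ± 0.114 (adjusted p = 0.288 by limma) and overlapping groups. Cd3g differed by -0.10 ± 0.101, Lck by -0.11 ± 0.102, Cd2 by -0.04 ± 0.0994 and Cd8a by -0.03 ± 0.0922, each with overlapping groups and adjusted p-values of 0.610 to 0.881 by limma. The 95% interval for Cd3g ran from -0.33 to 0.14 and that for Lck from -0.35 to 0.13. The call of Gzma did not hold when a single rat of the corn oil group (-0.82 without replicate 1, -0.76 without 2 and -0.83 without 3) or ANIT replicate 1 (-0.74) was left out. With all 23 samples in 1 fit, Gzma lost its call (adjusted p = 0.0698 by limma) and Prf1 was called lower instead (adjusted p = 0.0104).

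The difference between the ANIT and the MDA effects was tested in a fit over both studies. It was called for Lck (-0.80 ± 0.138, adjusted p = 0.0169), Il2rb (-0.84 ± 0.160, adjusted p = 0.0273) and Gzmb (-1.02 ± 0.201, adjusted p = 0.0317) by limma, each lower under ANIT. That was 3 of 8 members, against 0.964% of all genes called lower and 0.710% called higher, and the median over the members was -0.87 against -0.01 over all genes. Prf1 (-0.90 ± 0.210, adjusted p = 0.0641), Cd3g (-0.96 ± 0.258, adjusted p = 0.105) and Gzma (-1.41 ± 0.394, adjusted p = 0.122) had differences of like or greater size that did not pass. Cd2 differed by -0.32 ± 0.197 and Cd8a by -0.02 ± 0.128, with 95% intervals of -0.75 to 0.11 and -0.30 to 0.26. The other probe sets of Cd8a read -0.58 ± 0.125 (adjusted p = 0.0476 by limma, under 1.5-fold) and -0.53 ± 0.163 (adjusted p = 0.175) for this difference.

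The compounds were given in different in-life studies with different vehicles, so compound and study cannot be told apart in this difference. Leaving out corn oil replicate 1 ended the call of Lck (-0.75); that of Il2rb was lost without corn oil replicates 1 or 3, ANIT 1 or 2, ethanol 1 or 3, or MDA 1 or 3 (-0.85 to -0.77), and that of Gzmb without any corn oil or ethanol rat, ANIT 1 or 3, or MDA 1 (-1.08 to -0.96), while Cd3g (-1.23) and Gzma (-1.72) gained calls without MDA replicate 2 and Prf1 (-1.01) without ANIT replicate 3. Prf1 also gained a call in 5 of the other alternatives, among them quantile normalization (-0.88, adjusted p = 0.0494 by limma) and all 23 samples in 1 fit (adjusted p = 0.0297), and the fit of all samples added Cd3g (adjusted p = 0.0335).

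APAP and DCLF left the members close to their vehicles, with 0 of 8 called by limma under either compound. Under APAP, 0.239% of all genes were called higher and 0.0844% lower, and under DCLF the shares were 0% and 0%. At an unadjusted p below 0.05, 0 members passed under APAP, against 11.6% of all genes, and 2 under DCLF, Cd2 and Il2rb, against 11.8%; that per-gene test called 0 members under both. The median over the members was -0.06 under APAP and 0.05 under DCLF, against 0.02 and -0.03 over all genes.

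Under APAP the largest difference was that of Gzma, which read 7.41, 7.35 and 8.09 in APAP livers, against 7.52, 7.75 and 8.23 in corn oil livers at 2 ml/kg. The groups overlapped broadly, with 1 high rat in each, and the difference was -0.21 ± 0.234 (adjusted p = 0.790 by limma). Lck differed by 0.10 ± 0.111, Cd3g by -0.10 ± 0.0724, Cd2 by 0.05 ± 0.0916, Il2rb by -0.08 ± 0.0982, Gzmb by 0.02 ± 0.108 and Prf1 by -0.04 ± 0.134. Cd8a alone had its groups apart, at 8.65, 8.73 and 8.72 in APAP livers, against 8.77, 8.77 and 8.996 in corn oil livers (-0.15 ± 0.0847, adjusted p = 0.601 by limma). So 1 of 8 members lay wholly below and 0 wholly above, against 7.09% and 10.4% of all genes.

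Under DCLF, Cd2 read 9.54, 9.49 and 9.33 in DCLF livers, against 9.20 and 9.07 in water livers. All DCLF values were on top, and the difference of 0.32 ± 0.0950 (SE, n = 3 and 2) had an adjusted p of 0.311 by limma. Il2rb read 9.11, 9.37 and 9.18 in DCLF livers, against 8.87 and 9.01 in water livers, a difference of 0.28 ± 0.104 (adjusted p = 0.356 by limma). Its groups were likewise apart. Cd8a lay wholly below (-0.13 ± 0.0790), whereas its other probe sets differed by 0.23 ± 0.117 and 0.20 ± 0.101 in the opposite direction, without a call, and the other members overlapped, with differences of -0.16 for Cd3g to 0.11 for Prf1. In all, the groups of 3 of 8 members were apart, against 30.9% of all genes in either direction.

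The vehicles of that study, corn oil at 2 ml/kg and water, differed by at most 0.28 in size over the members (Cd3g, -0.28 ± 0.155, adjusted p = 0.749 by limma). At an unadjusted p below 0.05, 0 members passed, against 6.02% of all genes, and 0% of all genes were called higher or lower. The difference between the APAP and DCLF effects was also called for 0 of 8 members, against 0.134% of all genes called higher and 0% lower; Il2rb had the widest, at -0.36 ± 0.148 (adjusted p = 0.354 by limma), and 1 member passed an unadjusted p below 0.05, against 13.6% of all genes.

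The readings of Cd8a and Gzmb depended on the probe set. The array carries 3 probe sets for Cd8a, of which 1395116_at had the highest mean and gave the values above. Its values correlated at 0.19 and 0.20 with those of 1385414_at and 1369877_at over the 23 samples, whereas these last correlated at 0.72 with each other; the samples share their group structure, so these are descriptions only. Under MDA, 1369877_at averaged 8.55 ± 0.15 in MDA livers and 8.12 ± 0.04 in ethanol livers (SD, n = 3 each), a difference of 0.43 ± 0.0992 (SE, adjusted p = 0.0258 by limma) that stayed under 1.5-fold. For 1385414_at the difference was 0.40 ± 0.129 (adjusted p = 0.0813 by limma). Under ANIT they differed from corn oil by -0.15 ± 0.0814 and -0.12 ± 0.0890. The second probe set of Gzmb, 1379794_at, had a mean of only 4.97, near the lowest value of the table at 4.65, and differed by 0.26 ± 0.100 under MDA (adjusted p = 0.150 by limma) and by -0.04 ± 0.0793 under ANIT. The call of Gzmb under MDA was therefore not seen with this probe set, nor with the mean of both (0.44), and for the difference between ANIT and MDA effects it read -0.29 ± 0.125 (adjusted p = 0.380 by limma).

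**Figure D3:**
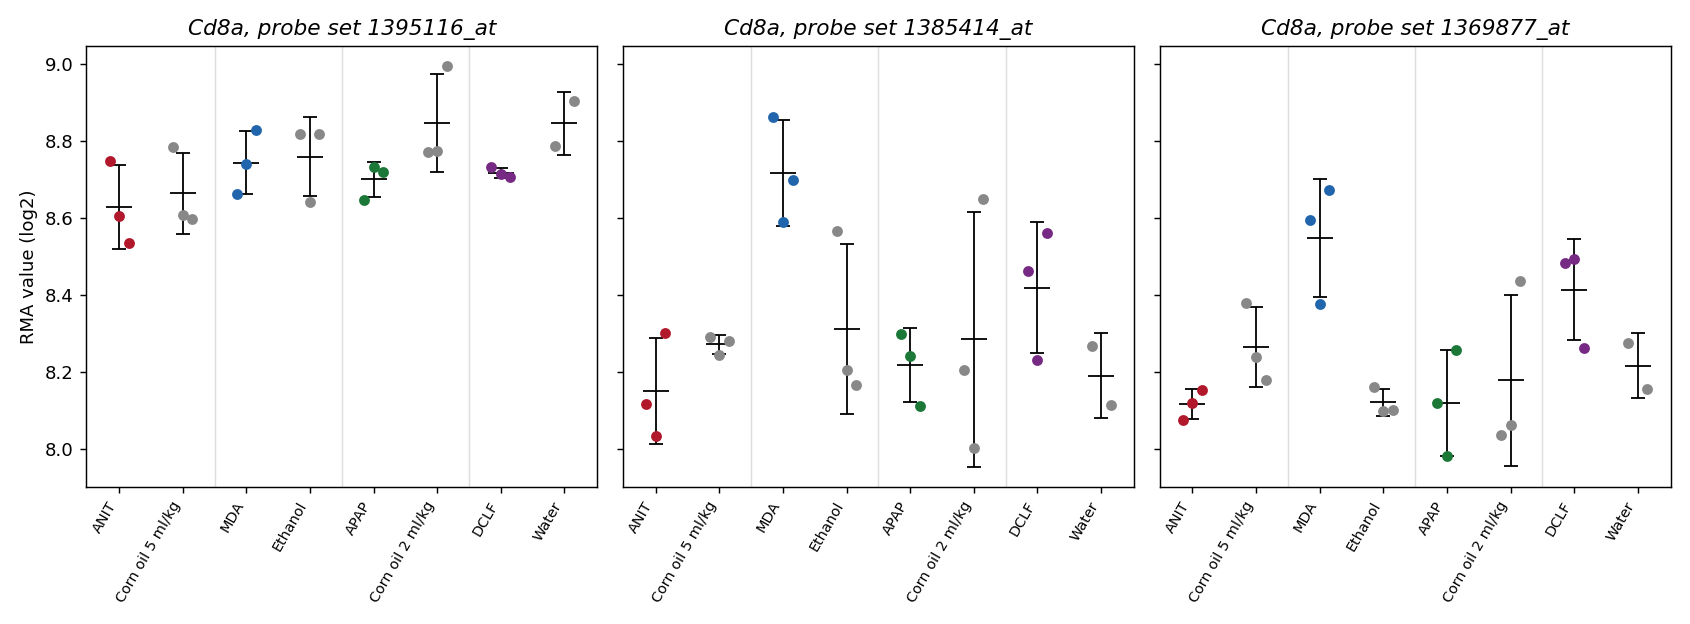
RMA values (log2) of the 3 probe sets of Cd8a by group, one point per rat, with mean and SD (n = 3, water n = 2). MDA values stand level with ethanol values for 1395116_at and above them on average for the other probe sets.

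Other genes of these cells were read from marker lists. The counts below stand beside the shares over all 14217 genes. Under MDA, 4.90% were called higher and 4.23% lower, with a median change of 0.002. Under ANIT, 3.84% were called higher and 3.38% lower, with a median change of -0.02. No list was tested as a set. Of 27 other T cell genes measured, 2 were called higher under MDA and 0 lower, with a median change of 0.24; these were Fyn (0.90 ± 0.189), a kinase of the same family as Lck, and Lcp2 (0.62 ± 0.100), an adaptor of receptor signalling, both of which myeloid cells also express. Of the 27 differences under MDA, 24 were above 0 and 3 below. Cd3e, another chain of the CD3 complex, differed by 0.38 ± 0.132 (adjusted p = 0.106 by limma). Cd4, the coreceptor of helper T cells, differed by 0.32 ± 0.120 (adjusted p = 0.134 by limma). Under ANIT, 0 of the 27 were called higher and 1 lower, Tcf7, a transcription factor of naive and memory T cells (-0.62 ± 0.0802); the median was -0.04. Cd3e differed by -0.05 ± 0.101 and Cd4 by 0.001 ± 0.0951 there.

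Of 29 NK and cytotoxic cell genes, 7 were called higher under MDA and 0 lower (median 0.22). Those with the largest changes were Fcgr3a (1.81 ± 0.181), an Fc receptor of NK cells and macrophages, Tyrobp (1.07 ± 0.177), a signalling adaptor of the same cells, and Itgal (0.85 ± 0.121), the alpha chain of the integrin LFA-1. Nkg7, a granule protein of cytotoxic cells, differed by 0.34 ± 0.116 (adjusted p = 0.0996 by limma). Of the 29 differences under MDA, 23 were above 0 and 6 below, the lowest at -0.34. None of the measured Klr and Ncr genes on this list, which encode receptors of NK cells, was called. Under ANIT, 0 of the 29 were called higher and 1 lower, the chemokine Ccl5 (-1.02 ± 0.158, adjusted p = 0.00745 by limma), with a median of -0.003 and Nkg7 at -0.25 ± 0.0742 (adjusted p = 0.0825). Ccl5 differed by 0.17 ± 0.179 under MDA, and the difference between the effects was called (-1.20 ± 0.262, adjusted p = 0.0485 by limma). Ccl5 was named for its ANIT call in these samples, so this difference is a description.

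Of 15 genes of interleukin 2 and 15 signalling, 3 were called higher under MDA (median 0.16). They were Il2rg (1.33 ± 0.135), the common gamma chain that pairs with Il2rb, Jak3 (0.88 ± 0.125), the kinase bound to that chain, and Myc (0.86 ± 0.235), a growth regulator that many cell types use. Under ANIT only Myc was called of these 15 (1.20 ± 0.228, higher), and Il2rg differed by -0.26 ± 0.190. The difference between the effects on Il2rg was called (-1.59 ± 0.253, adjusted p = 0.0117 by limma).

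Of 16 chemokines and receptors that attract lymphocytes, 5 were called higher under MDA, and all 16 differences were above 0 (median 0.32). Cxcl9 (1.90 ± 0.298) and Cxcl10 (1.79 ± 0.270), interferon-induced ligands of CXCR3, and Cxcl16 (1.65 ± 0.155), the ligand of CXCR6, led them. Under ANIT, Cxcl16 was called higher (0.95 ± 0.229) and Ccl5 lower, and Cxcl9 and Cxcl10 differed by 0.23 ± 0.448 and -0.18 ± 0.278. Of 13 B and plasma cell genes, 1 was called higher under MDA, Cd37 (0.75 ± 0.0957), and 0 in either direction under ANIT, where 11 of 13 were below 0.

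Lists of other cells moved with the MDA calls, and their part in them was not tested. Of 14 pan-leukocyte genes, 10 were called higher under MDA, among them Ptprc (1.27 ± 0.107), which encodes CD45, Cd53 (1.68 ± 0.0990), Coro1a (1.39 ± 0.130) and Lcp1 (1.11 ± 0.135). The mean log2 value over this list was 10.30 to 10.48 in MDA livers, against 9.58 to 9.69 in ethanol livers. Of 16 macrophage markers, 11 were called higher (among them Gpnmb at 2.04 ± 0.184 and Aif1 at 1.69 ± 0.210), with list means of 11.36 to 11.60 in MDA livers against 10.43 to 10.70 in ethanol livers. Hepatocyte markers had 4 of 13 called lower, with list means of 14.30 to 14.47 in MDA livers against 14.72 to 14.75 in ethanol livers. Neutrophil markers had 3 of 11 called higher under MDA (median 0.36). These were Lcn2 (3.62 ± 0.129), Il1b (0.90 ± 0.122) and Fcgr3a, which is also on the NK list. Under ANIT only Lcn2 was called of these 11 (5.36 ± 0.503, higher), and 5 differences were above 0 and 6 below (median -0.05). Cholangiocyte markers had 2 of 9 called higher under MDA and 1 under ANIT, Epcam (2.16 ± 0.156), and proliferation genes 3 of 10 under MDA. Mast cell markers had 0 of 10 called by limma under either compound. RMA gives no detection call, so no marker could be listed as at 0. The T cell list itself averaged 8.45 to 8.55 in MDA livers against 8.21 to 8.28 in ethanol livers, and the NK list 8.85 to 9.001 against 8.50 to 8.66.

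The same lists were read under ANIT, and their part in the Gzma call was not tested. Of 14 pan-leukocyte genes 0 were called in either direction, with list means of 9.58 to 10.02 in ANIT livers against 9.63 to 9.89 in corn oil livers. Of 16 macrophage markers 3 were called higher, with list means of 10.89 to 11.26 in ANIT livers against 10.83 to 10.96 in corn oil livers. The NK list averaged 8.49 to 8.56 in ANIT livers against 8.52 to 8.67 in corn oil livers. Of 10 proliferation genes 9 were called higher, and the hepatocyte list averaged 14.05 to 14.76 in ANIT livers against 14.02 to 14.79 in corn oil livers. The low ends were the arrays with a low highest value, ANIT replicates 1 (14.05) and 2 (14.15) and corn oil replicate 2 (14.02), against 14.76 in ANIT replicate 3 and 14.73 and 14.79 in the other corn oil rats. Hepatocyte markers had 1 of 13 called higher, Tat (0.70 ± 0.139), and 0 lower. Of the 13 differences under ANIT, 3 were above 0 and 10 below. Their median was -0.22, against -0.28 for the same list under MDA. Of 7 sinusoidal endothelial markers 2 were called lower under ANIT, Stab1 (-0.75 ± 0.108) and Kdr (-0.73 ± 0.131), and 0 under MDA. Kdr was lower under MDA too (-0.49 ± 0.125, adjusted p = 0.0375 by limma), but by under 1.5-fold. The difference between the effects was not called for Kdr (-0.24 ± 0.191, adjusted p = 0.753 by limma). It was called for Stab1 (-0.95 ± 0.190, adjusted p = 0.0346 by limma). Under APAP and DCLF, 0 genes of any of the 13 lists were called by limma.

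**Figure D4:**
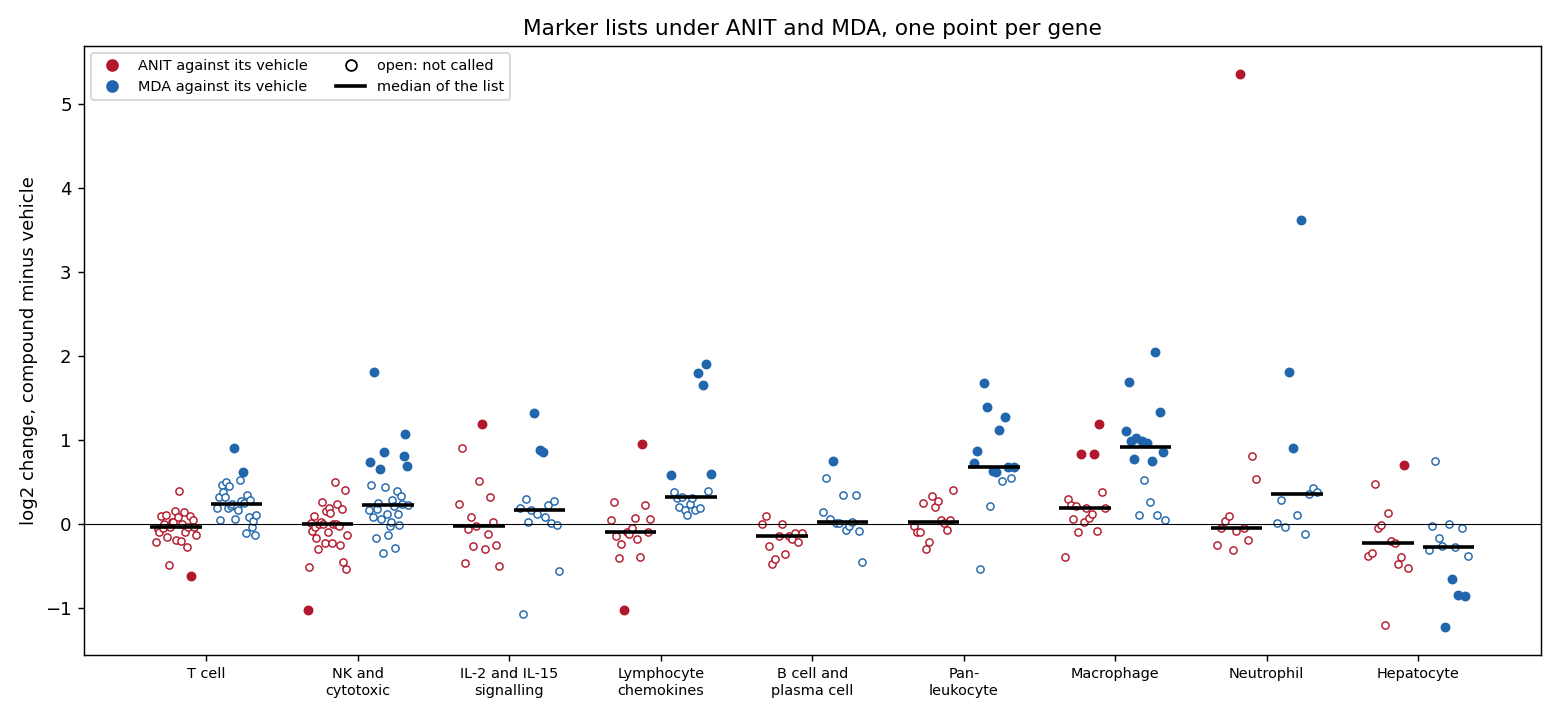
Change of every measured gene (log2, compound minus vehicle) in 9 marker lists, ANIT left of MDA. Filled points were called, open points were not and black bars are list medians, which under MDA were 0.24 for T cell, 0.22 for NK and cytotoxic, 0.68 for pan-leukocyte and 0.91 for macrophage genes.

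Genes with patterns like those of the members were sought over all 14217 genes and the 23 samples. The profile of Lck, Cd3g, Cd2 and Cd8a, taken as the mean of their standardised values, was followed most closely by Il2rg (r = 0.89), Cd74 (r = 0.88), the invariant chain of MHC class II, Epsti1 (r = 0.88), Cd83 (r = 0.88), a marker of activated dendritic and B cells, and Tnfrsf14 (r = 0.87), a receptor of the TNF family. That of Gzma, Gzmb and Prf1 was followed most closely by Tnfrsf14 (r = 0.87), Apol3-ps1 (r = 0.86), Cst7 (r = 0.85), a cystatin of cytotoxic cells, Xcl1 (r = 0.84), a chemokine of NK and CD8 T cells, and Ptprcap (r = 0.83), which binds CD45. The MDA livers entered this choice, and all 9 genes were called higher under MDA, by 0.66 (Ptprcap) to 1.33 (Il2rg). Cst7 differed by -0.52 ± 0.205 and Xcl1 by -0.53 ± 0.159 under ANIT, without a call.

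Among the members, the closest pairs over the 23 samples were Cd3g with Il2rb (r = 0.82), Lck with Il2rb (r = 0.79) and Gzma with Gzmb (r = 0.78). After group means were taken out, Gzma with Gzmb kept an r of 0.63, while Lck with Cd3g had 0.25 against 0.77 before. The highest r of Cd8a with another member was 0.42, with Gzma. These are descriptions over arrays that share groups and studies.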

How the data were processed

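Total RNA from the left lateral lobe was biotin-labelled for single-colour Affymetrix rat arrays. The deposited table held log2 values that the authors made by RMA in Array Studio. The log2 values ran from 4.65 to 15.99, with 0 missing, and were used without further scaling. Array depth is not defined, and the number of arrays limits the precision.

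Of 31099 probe sets, 57 controls were left out. Of the 31042 tested, 20826 were annotated to 1 gene, 436 to several and 9780 to none; 20758 of the 20826 were found by gene ID in the GRCr8 gene table and named from it. The members lie on GRCr8 chromosomes 5 (Lck), 8 (Cd3g), 2 (Cd2 and Gzma), 4 (Cd8a), 7 (Il2rb), 15 (Gzmb) and 20 (Prf1); promoter sequences were those of RefSeq.

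Each comparison was fitted with limma 3.58.1 in R 4.3.3 on the groups it names, with moderated variance and Benjamini-Hochberg adjustment over all probe sets, and called at an adjusted p below 0.05 and a change above 1.5-fold. The fits were tested on simulated data. The methods' own test, a t-test at p below 0.01 and 1.5-fold, was run as an alternative, with other normalizations, filters, probe sets and each rat left out. Beside the members, the text names up to 4 called genes of each of 13 marker lists, those with the largest change under ANIT or MDA, 5 genes fixed as Ptprc, Cd4, Cd3e, Nkg7 and Il2rg, and the 5 genes most like each member profile. The members and lists were chosen with earlier results of these data known. Labels give separate animals for the samples, in corn oil at 5 ml/kg only if the opening numbers of the titles are read as animals. The p-values measure the spread between samples read in this way.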

Additional observations from a re-analysis of the deposited data

Results flagged for a closer look

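Changes against the own vehicle that differed between ANIT and MDA by the limma test of the difference (ANIT effect minus MDA effect, log2) are listed here for the named genes. Among the members they were Lck (-0.80), Il2rb (-0.84) and Gzmb (-1.02). Among the other named genes of lymphocytes and leukocytes they were Lcp2 (-0.62), Fcgr3a (-1.71), Ccl5 (-1.20), Il2rg (-1.59), Cxcl10 (-1.98), Cd37 (-1.22), Cd53 (-1.43), Coro1a (-1.68) and Ptprc (-1.27). Among the genes most like the member profiles they were Cd74 (-1.35), Epsti1 (-0.84), Cd83 (-1.47), Tnfrsf14 (-1.36), Cst7 (-1.25), Xcl1 (-1.23) and Ptprcap (-0.84). Among named genes of other cells they were Gpnmb (-1.21), Adgre1 (-1.49) and Stab1 (-0.95), and, higher under ANIT, Tat (1.56) and Epcam (1.06). The profiles were built from samples that enter the test, so the values of the genes most like them are descriptions. Il2rg, named above with the lymphocyte genes, is also a gene most like a profile. Apart from the fixed genes Ptprc and Il2rg, the other named genes were picked by their calls and changes under ANIT or MDA. These calls came from the same samples, so those values are descriptions too. ANIT and MDA were given in different studies with different vehicles, and compound and study cannot be told apart. No group held enough rats to test a single rat against the others.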

How the results depend on the processing

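No paired analysis was possible because no rat was in more than 1 group and replicates were numbered by accession order alone. No member reversed a called direction under any alternative. The number of members called lower under ANIT, 1, was 2 with the adjusted p alone, 0 with the t-test of the methods at its unadjusted threshold, 0 with that test adjusted, and 0 to 1 with each rat left out. With all 23 samples in 1 fit it was again 1, but Prf1 in place of Gzma. The number called higher under MDA, 4, was 2 with the unadjusted t-test, 0 with it adjusted, and 1 to 4 with each rat left out. For the difference between ANIT and MDA effects, 3 members became 0 with the adjusted t-test, 5 with all 23 samples in 1 fit, and 0 to 5 with each rat left out. Gzmb under MDA also lost its call with the mean of its probe sets and with its second probe set, an alternative chosen after seeing the data. Under APAP, DCLF and the vehicles, 0 members were called in every alternative.

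Over all probe sets, the 1671 called under ANIT became 3050 without a fold threshold and 222 with the adjusted t-test. The 2179 under MDA became 4023 and 372. With the probe sets of a gene averaged, 972 genes were called under ANIT and 1210 under MDA. These are counts of genes and not of probe sets. By 1 probe set per gene, the main fit called 546 genes higher and 480 lower under ANIT, and 697 and 601 under MDA. The 361 probe sets called for the difference between the ANIT and MDA effects became 629 with the unadjusted t-test and 28 with it adjusted. They became 150 to 217 without any one corn oil rat or ethanol replicate 2 or 3. The 65 under APAP became 117, 1 and, with all samples in 1 fit, 125, and 24 to 31 without replicate 1 or 2 of APAP or of corn oil at 2 ml/kg; 0 under DCLF became 32 with the unadjusted t-test, 5 with all samples in 1 fit, 3 without dim probe sets and 11 with a trended, robust variance. The 22 of the APAP and DCLF difference became 245, 0, 58 with all samples and 35 without dim probe sets, and 8 to 13 without water replicate 2, corn oil replicate 2, APAP replicate 1 or DCLF replicate 3, and 0 between the vehicles became 10 with the unadjusted t-test. The cause was not tested.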
